A study of Mus musculus with 9 samples.

Results

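The genes described here are 10 genes of MHC class I presentation: the heavy chains H2-D1, H2-K1, H2-T23, H2-Q4, H2-Q6, H2-Q7 and H2-Q10, the light chain B2m, and the peptide loading genes Tap1 and Tapbp. They are 10 of 54532 genes in the expression table, and all 10 were found by symbol. They were chosen by name as class I and loading genes, with their values in these libraries already known, so their levels are given as a description with no p-value. The one fit across all genes includes them, and how many of them it called is counted once beside the share of all genes, with nothing read from it. Test results are given for a list of other class I pathway genes.

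RNA sequencing measured 9 libraries of total RNA from cells labelled as myeloid, taken from white cells of C57BL/6 mice aged 6 to 8 weeks. The 3 groups of 3 libraries were fl (wild type), KO (Socs3 knockout) and Gr_1 (wild type), and each library carries a letter, A, B or C. The labels do not spell out what fl and Gr_1 stand for, name no promoter, Cre or treatment, and do not tell if a group's libraries are from different animals. P-values therefore measure only the spread between these libraries, which may be technical.

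Class I molecules show peptides from inside a cell to CD8 T cells and to NK cells. A heavy chain pairs with beta-2-microglobulin, the product of B2m, and takes up peptides that the proteasome has cut and the transporter encoded by Tap1 and Tap2 has moved into the endoplasmic reticulum, with tapasin, the product of Tapbp, holding the empty heavy chain at the transporter. H2-K1 and H2-D1 are the classical heavy chains of this strain. H2-T23 encodes Qa-1, which shows leader peptides of other class I chains to NK receptors, H2-Q6 and H2-Q7 belong to the Qa-2 family, and H2-Q10 encodes a secreted chain best known from liver and serum.

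Class I promoters share an upstream block with a site for NF-kappaB factors and a site for interferon regulatory factors, and it is shown here because the H2-Q genes differ in expression while keeping most of it. The lines give 60 bases of each promoter from RefSeq on GRCm38.p6, 5′ to 3′ along the gene's strand. Capitals mark exact matches to GGGATTCCC, GGGATTTCC or TTTCACTTC, searched on both strands. The windows do not run into the transcript of their own gene.
H2-K1, chr17:34000413-34000472, minus strand: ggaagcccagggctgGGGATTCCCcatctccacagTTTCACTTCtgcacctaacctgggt
H2-Q4, chr17:35379429-35379488, plus strand: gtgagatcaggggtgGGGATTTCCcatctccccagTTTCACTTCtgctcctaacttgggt
H2-Q6, chr17:35424663-35424722, plus strand: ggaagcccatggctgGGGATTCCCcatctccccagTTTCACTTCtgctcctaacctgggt
H2-Q7, chr17:35439007-35439066, plus strand: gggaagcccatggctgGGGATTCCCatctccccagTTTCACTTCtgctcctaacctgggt
H2-Q10, chr17:35469899-35469958, plus strand: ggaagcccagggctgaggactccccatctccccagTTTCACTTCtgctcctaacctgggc

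TTTCACTTC was found in H2-D1 and in all 5 genes shown, and in 0.505% of 32851 mouse promoters of the same length (250 bases before to 50 after the start). GGGATTCCC was found in H2-K1, H2-D1, H2-Q6 and H2-Q7 and in 0.353% of promoters. H2-Q4 held GGGATTTCC, found in 0.323%. The H2-Q10 window held neither of these NF-kappaB motifs as spelled here, and it was the one member of the 10 with no CCAAT, which 37.4% of promoters hold. H2-T23, B2m, Tap1 and Tapbp held none of the 9-letter motifs. These matches describe letters in a window and no binding was measured.

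Recovered depth was 18.3 to 21.5 M fragments per library, and 3 fragments correspond to 0.136 to 0.187 FPKM (fragments per kilobase of exon and mega, M, fragments) for 1 kilobase of exon, counting error only. The 9 myeloid markers were all at 1 FPKM or more in every group. Socs3, the targeted gene, stood at 3.87, 4.02 and 3.40 FPKM in the libraries labelled fl, at 9.23, 6.76 and 8.37 in those labelled KO and at 37.0, 36.6 and 33.0 in Gr_1, so the targeted gene was above the fl level in the KO libraries. Xist stood at 0.00280 FPKM in KO A, 58.5 in KO B and 26.3 in KO C, while the sum of 4 Y-linked genes was 26.5, 0 and 14.2 FPKM there, so KO C held both kinds of RNA. The other 6 libraries had Xist at 0.0104 FPKM or less with Y-linked genes at 16.6 to 39.3. KO C lay between KO A and KO B in 61.5% of 12289 tested genes, whereas each other library lay between its 2 partners in 15.6% to 44.4%. The labels do not say whether KO C is independent of KO A and KO B, which was not tested. Every KO mean, SD, SE and p-value here counts it as 1 of 3 libraries, and would rest on 2 if it is not. The 10 genes are therefore given per library, with KO to fl ratios and pathway counts also without KO C.

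H2-D1 and H2-K1 were by far the most abundant heavy chains in every library, and each group had its own pattern of the others. Relative to fl, the Gr_1 libraries had more H2-D1, H2-T23, H2-Q6 and H2-Q10 and less H2-K1, while the KO libraries had more H2-Q4, H2-Q6, H2-Q7 and H2-Q10 with H2-K1 and H2-D1 close to fl. B2m and Tap1 differed little. Mean Tapbp was 0.852 times fl in KO, with KO A overlapping fl, and 0.978 times fl in Gr_1. In bulk RNA fewer cells of a type and less RNA per cell cannot be told apart.

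**Figure D1:**
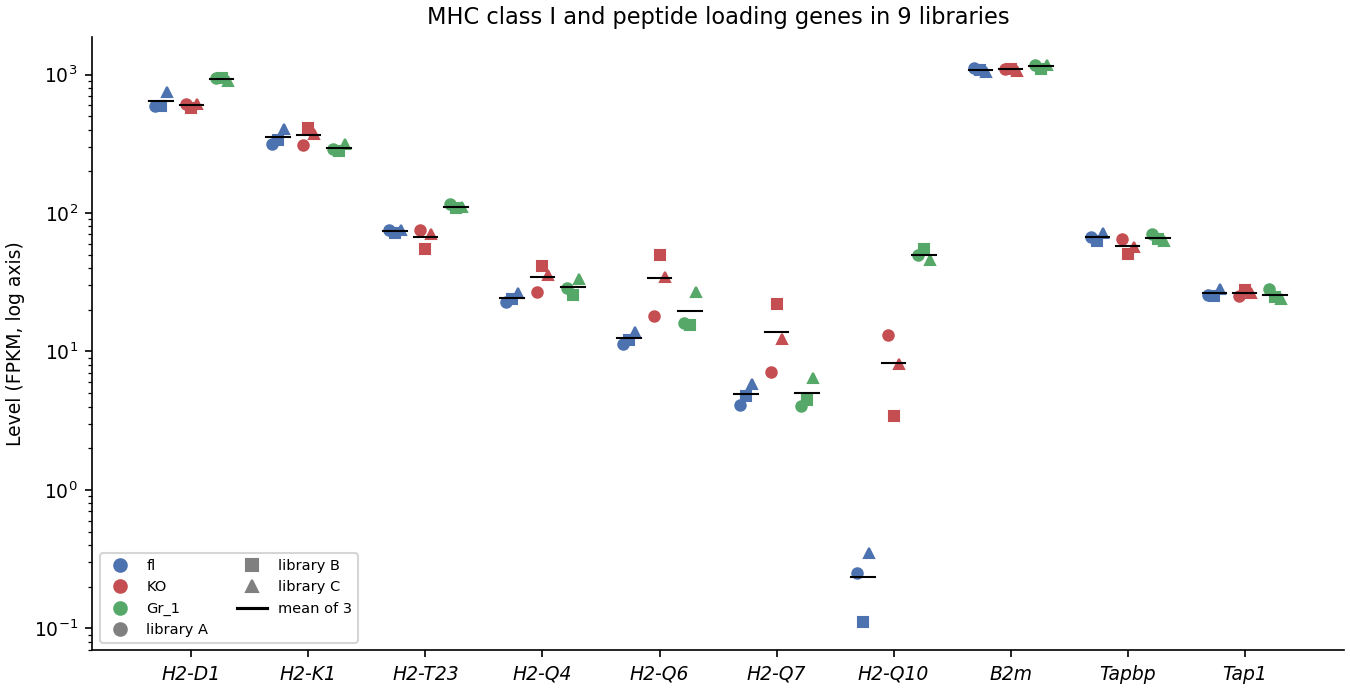
Level of each of the 10 genes in FPKM on a log axis, with 1 point per library, colour for the group, shape for the library letter and a bar for the mean of 3 libraries. H2-Q10 runs from 0.111 FPKM in fl B to 54.7 in Gr_1 B, while B2m stays between 1049 and 1179 FPKM in all 9 libraries.

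H2-D1 (ENSMUSG00000073411, chr17:35262730-35267499, plus strand, GENCODE M21 on GRCm38) was at 590 FPKM in fl A, 597 in fl B and 742 in fl C, at 611, 572 and 615 in KO A, B and C, and at 943, 945 and 895 in Gr_1 A, B and C. The Gr_1 libraries lay above all 6 others and the fl and KO libraries overlapped. Mean H2-D1 in Gr_1 was 928 ± 28.1 FPKM (SD, n = 3), 1.44 times fl (643 ± 86.0) and 1.55 times KO (600 ± 23.9). KO over fl was 0.933, and 0.921 without KO C.

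H2-K1 (ENSMUSG00000061232, chr17:33996017-34000347, minus strand) went the other way. It was at 317, 336 and 403 FPKM in fl, at 308, 414 and 372 in KO, and at 291, 281 and 313 in Gr_1, in the order A, B, C. All 3 Gr_1 libraries were below every fl library, and the KO libraries overlapped both. The mean was 352 ± 45.3 in fl, 365 ± 53.1 in KO and 295 ± 16.5 in Gr_1, a ratio of 0.838 between Gr_1 and fl. KO over fl was 1.04, and 1.03 without KO C.

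The ratio of the 2 classical chains within a library does not depend on the factor by which that library is scaled. H2-D1 over H2-K1 was 1.86, 1.78 and 1.84 in fl, 1.98, 1.38 and 1.66 in KO, and 3.24, 3.36 and 2.86 in Gr_1. Each Gr_1 library had a higher H2-D1 to H2-K1 ratio than any of the others, and KO B had the lowest. The mean ratio was 1.83 ± 0.0419 in fl, 1.67 ± 0.301 in KO and 3.15 ± 0.264 in Gr_1.

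H2-T23 (ENSMUSG00000067212, chr17:36029773-36032855, minus strand), the non-classical Qa-1 chain, shared the high Gr_1 level of H2-D1. It was at 75.4, 72.1 and 75.7 FPKM in fl, at 74.9, 54.97 and 70.0 in KO, and at 116, 108 and 110 in Gr_1. The Gr_1 libraries stood apart from all others, and KO B was lowest. Gr_1 had 1.497 times the mean of fl and 1.67 times that of KO. KO over fl was 0.896, and 0.873 without KO C.

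The H2-Q genes lie side by side on the plus strand of chromosome 17 and carried the differences seen in the KO libraries. H2-Q4 (ENSMUSG00000035929, chr17:35379617-35385290), a non-classical chain, was at 22.6, 24.1 and 26.6 FPKM in fl, at 26.8, 41.2 and 35.5 in KO, and at 28.6, 25.7 and 33.3 in Gr_1. The KO libraries were all above the fl libraries, though KO A passed fl C only narrowly, and Gr_1 overlapped both groups. The mean was 24.4 ± 2.02 in fl, 34.5 ± 7.26 in KO and 29.2 ± 3.87 in Gr_1, and KO was 1.41 times fl.

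H2-Q6 (ENSMUSG00000073409, chr17:35424850-35430055) was at 11.4, 12.1 and 13.9 FPKM in fl, at 17.9, 49.9 and 34.8 in KO, and at 15.9, 15.6 and 27.0 in Gr_1. Fl was lowest and did not overlap either other group, and Gr_1 C lay among the KO values. The mean was 12.5 ± 1.31 in fl, 34.2 ± 15.98 in KO and 19.5 ± 6.46 in Gr_1, so KO was 2.74 times and Gr_1 1.56 times fl.

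H2-Q7 (ENSMUSG00000060550, chr17:35439155-35443773) was at 4.13, 4.79 and 5.87 FPKM in fl, at 7.14, 21.99 and 12.3 in KO, and at 4.05, 4.47 and 6.44 in Gr_1. The KO libraries were above all 6 others, while fl and Gr_1 overlapped throughout. The mean was 4.93 ± 0.877 in fl, 13.8 ± 7.54 in KO and 4.99 ± 1.28 in Gr_1, and KO was 2.80 times fl and 2.77 times Gr_1. Between 277 and 2039 fragments stood behind each H2-Q7 value.

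Within KO the 3 libraries kept the order B, C, A for H2-K1, H2-Q4, H2-Q6 and H2-Q7. KO C lay between KO A and KO B in 61.5% of tested genes. An order within KO therefore says little beyond whether KO A or KO B was higher. KO B was 1.34 times KO A in H2-K1, 1.54 times in H2-Q4, 2.78 times in H2-Q6 and 3.08 times in H2-Q7. Xist had the same order, at 58.5 FPKM in KO B, 26.3 in KO C and 0.00280 in KO A, and Y-linked genes the reverse. No fl or Gr_1 library had Xist above 0.0104 FPKM. The part of sex in the H2-Q levels was not tested. KO C was within 4.27% of the mean of KO A and KO B for H2-K1, H2-Q4 and H2-Q6, and its H2-Q7 level differed from that mean by -15.5%. Without KO C the KO to fl ratio was 1.39 for H2-Q4, 2.72 for H2-Q6 and 2.95 for H2-Q7. Without KO B it was 1.27, 2.11 and 1.97, and without KO A it was 1.57, 3.39 and 3.48.

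**Figure D2:**
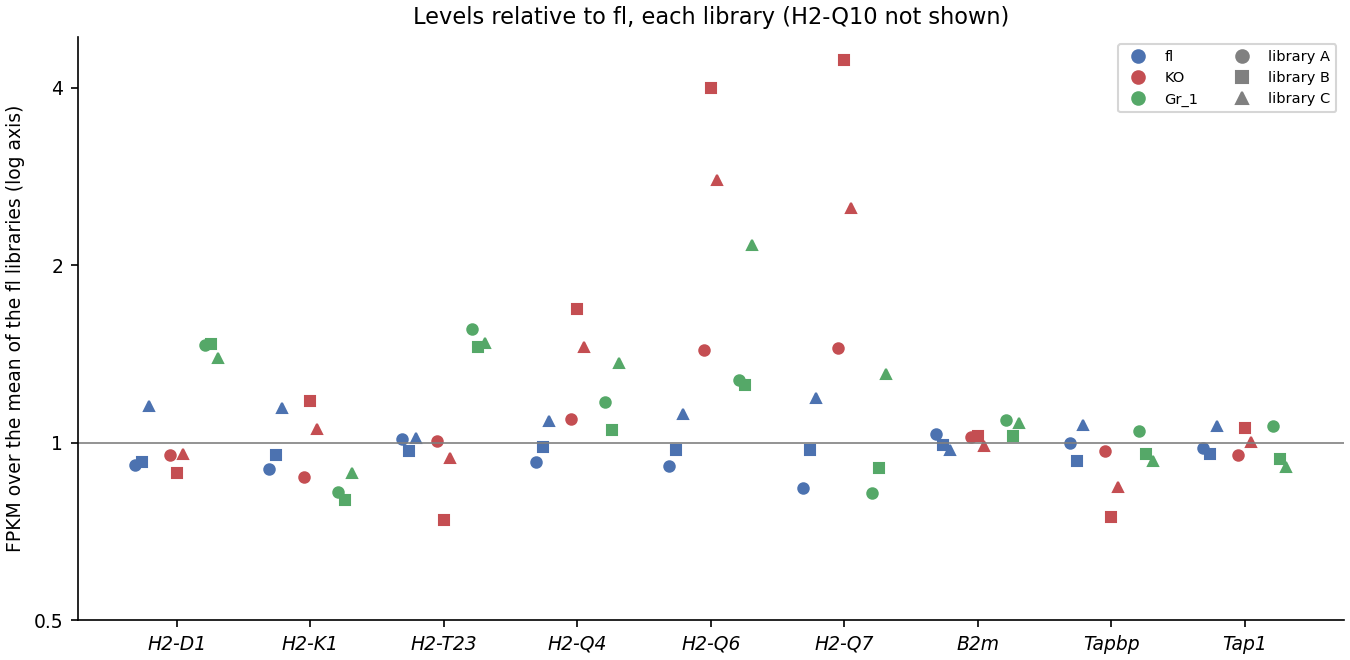
FPKM of 9 of the genes in each library over the mean of the 3 fl libraries, on a log axis, with colour for the group and shape for the library letter (H2-Q10, whose ratios are far larger, is left out). H2-Q6 and H2-Q7 in KO run from 1.44 and 1.45 times fl in KO A to 3.995 and 4.46 times in KO B, and H2-D1 and H2-T23 are high in the Gr_1 libraries.

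Markers of other blood cells moved in the same libraries, and their part in the H2-Q levels was not tested. The 13 T cell markers summed to 4.31 to 6.88 FPKM in fl, 20.4, 28.3 and 23.7 in KO A, B and C, and 10.54 to 11.9 in Gr_1. All 13 had a higher mean in KO than in fl, though only 2 of them had a mean of 1 FPKM or more in fl and 5 in KO. The T cell sum was led by Lck. The 8 basophil and mast cell markers, led by Prss34, summed to 125 to 256 FPKM in fl, 407, 523 and 467 in KO, and 196 to 315 in Gr_1, with 8 of 8 higher on average in KO than in fl. The 10 NK cell markers summed to 143 to 207 in fl, 140, 272 and 197 in KO and 16.8 to 24.9 in Gr_1. In all 3 lists KO B was the highest KO library and KO A the lowest, the order of H2-Q7. With KO C between them in 61.5% of tested genes, this match amounts to little more than KO B being above KO A.

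The 19 interferon response genes summed to 121 to 168 FPKM in fl, 162, 78.5 and 120 in KO A, B and C, and 141 to 205 in Gr_1. The 3 groups overlapped in that sum, and KO B, the library with the most H2-Q6 and H2-Q7, had the lowest of all 9. The part of interferon in the H2-Q levels was not tested.

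H2-Q10 (ENSMUSG00000067235, chr17:35470089-35474563) had the widest range of the 10 genes. It was at 0.251, 0.111 and 0.348 FPKM in fl, from 24, 10 and 28 fragments, at 13.2, 3.41 and 8.13 in KO, from 1138, 322 and 769 fragments, and at 50.1, 54.7 and 45.6 in Gr_1, from 3490, 4315 and 3175 fragments. The groups did not overlap, with fl lowest, KO between and Gr_1 highest. The mean was 0.237 ± 0.119 in fl, 8.24 ± 4.88 in KO and 50.1 ± 4.53 in Gr_1, so Gr_1 was 212 times and KO 34.8 times fl, and Gr_1 was 6.08 times KO. H2-Q10 passed the filter on low values only through its KO and Gr_1 libraries, and on the log2(FPKM + 1) scale its differences from fl, 5.37 for Gr_1 and 2.75 for KO, understate those ratios.

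Within KO the order of H2-Q10 was A, C, B, the reverse of H2-Q7. KO A had 3.87 times the H2-Q10 level of KO B, and KO C differed from their mean by -1.90%. The KO to fl ratio of H2-Q10 was 35.03 without KO C, 45.0 without KO B and 24.4 without KO A.

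The 11 late neutrophil markers, led by Ltf, had the same order of groups, and within KO the same order of libraries. They summed to 2291 to 2477 FPKM in fl, to 6711, 3285 and 4993 in KO A, B and C, and to 18184 to 18620 in Gr_1, and 11 of 11 were higher on average in KO and in Gr_1 than in fl. The match within KO says little beyond KO A being above KO B. The part of these markers in the H2-Q10 level was not tested. The 10 hepatocyte markers overlapped among the 3 groups and summed to 1.08 to 1.71 FPKM in fl, 1.28 to 1.71 in KO and 1.10 to 2.33 in Gr_1, led by Apoa2. Ttr, Serpina1b and Tat were at 0 in all 3 groups, and Alb was at 0 in fl and KO.

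**Figure D3:**
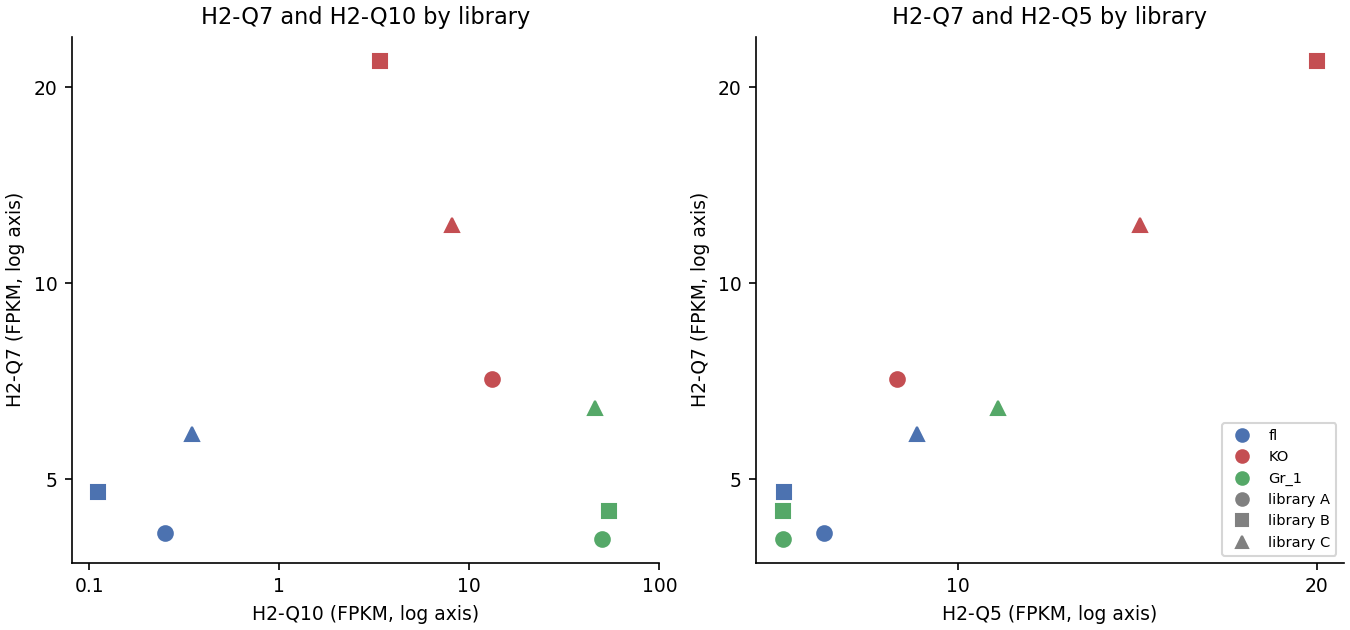
H2-Q7 against H2-Q10 (left) and against the neighbouring gene H2-Q5 (right), in FPKM on log axes, with 1 point per library. On the left the KO libraries run from high H2-Q7 and low H2-Q10 (KO B, 21.99 and 3.41 FPKM) to low H2-Q7 and high H2-Q10 (KO A, 7.14 and 13.2). On the right the same 3 libraries have 1 order in both genes.

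Of the remaining marker lists, monocyte and macrophage genes summed to 1598 to 1772 FPKM in fl, 899 to 1028 in KO and 562 to 634 in Gr_1. MHC class II and dendritic cell genes, led by Cd74, summed to 754 to 880, 421 to 450 and 209 to 294 in the same order. Of these 10 genes, 4 had a higher mean in KO than in fl, and 3 had a higher mean in Gr_1 than in fl. B cell genes summed to 62.5 to 84.6, 40.5 to 76.2 and 273 to 290 in fl, KO and Gr_1. Erythroid and platelet genes summed to 45.8 to 72.5, 113 to 117 and 108 to 201, and fibroblast and endothelial genes to 5.80 to 6.76, 8.36 to 9.15 and 9.60 to 11.6. Their part in the class I levels was not tested.

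Shared sequence limits how far the H2-Q genes can be told apart. Of 125-base windows along their transcripts, 8.21% of those of H2-Q6, 8.53% of H2-Q7 and 5.24% of H2-Q10 also occurred in a transcript of another gene, mostly another H2-Q gene. H2-Q7 shared 3.94% of its windows with H2-Q10, 2.80% with H2-Q6 and 1.89% with H2-Q5. H2-K1 shared 0.0720%, H2-D1 2.62% and H2-T23 1.20%. In H2-Q4 19.1% of the exon bases lie opposite Gm11131, and 24.9% of those of Tapbp lie opposite Gm19412, and the sources used here do not state whether fragments were counted by strand, so H2-Q4 and Tapbp may include fragments of these partners. H2-Q8 and H2-Q9, close relatives of H2-Q6 and H2-Q7, were not found by symbol and were not analysed here. The shares above may therefore miss windows shared with them. Whether the H2-Q6 and H2-Q7 values include fragments of H2-Q8 or H2-Q9 was not tested.

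Summed over the library, the 4 H2-Q genes made up a small share next to the classical chains. They came to 4.23%, 4.41% and 4.08% of H2-K1 plus H2-D1 in fl, 7.07%, 11.8% and 9.19% in KO, and 8.00%, 8.19% and 9.30% in Gr_1. Both KO and Gr_1 lay above fl and overlapped each other, with the H2-Q genes in different proportions. H2-Q6 plus H2-Q7 was 1.75 ± 0.0554% of H2-K1 plus H2-D1 in fl, 4.93 ± 2.29% in KO and 2.01 ± 0.656% in Gr_1. H2-Q10 was 0.0209 ± 0.00902% of the summed heavy chains in fl, 0.749 ± 0.476% in KO and 3.48 ± 0.312% in Gr_1, where it passed H2-Q4 (2.03 ± 0.275%).

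Ordered by mean FPKM, the heavy chains ran H2-D1, H2-K1, H2-T23, H2-Q4, H2-Q6, H2-Q7 and H2-Q10 in fl. KO had the same order, but there H2-Q4 and H2-Q6 (34.5 and 34.2 FPKM), H2-Q6 and H2-Q7, and also H2-Q7 and H2-Q10 overlapped across libraries. In Gr_1 H2-Q10 moved up to the fourth place, above H2-Q4, and H2-Q7 was last, while H2-Q4 and H2-Q6 overlapped. H2-Q6 over H2-Q7 was 2.55 ± 0.191 in fl, 2.53 ± 0.280 in KO and 3.87 ± 0.348 in Gr_1.

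B2m (ENSMUSG00000060802, chr2:122147686-122153083, plus strand) was the most abundant of the 10 genes and the most even. It was at 1115, 1070.2 and 1049 FPKM in fl, at 1101, 1105 and 1064 in KO, and at 1179, 1105 and 1166 in Gr_1. Mean B2m in Gr_1 was 1.07 times fl on the deposited scale, but it was below fl when libraries were rescaled without their 10 most abundant genes or quantile normalized (lowest difference in log2(FPKM + 1) -0.30), so B2m has no stable direction. KO over fl was 1.01 for B2m, and 1.02 without KO C. The summed heavy chains over B2m were 0.915, 0.977 and 1.21 in fl, 0.963, 1.05 and 1.08 in KO, and 1.23, 1.30 and 1.23 in Gr_1. All 3 Gr_1 libraries were above the others in that ratio, though fl C came close to the lowest of them.

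Tap1 (ENSMUSG00000037321, chr17:34187553-34197225, plus strand), 1 of the 2 chains of the peptide transporter, was at 25.8, 25.2 and 28.1 FPKM in fl, at 25.2, 27.9 and 26.5 in KO and at 28.2, 24.7 and 23.99 in Gr_1. The 3 groups overlapped throughout. Tapbp (ENSMUSG00000024308, chr17:33915899-33929292, plus strand), the tapasin gene, was at 67.2, 62.6 and 72.2 FPKM in fl, at 65.2, 50.3 and 56.7 in KO and at 70.5, 64.5 and 62.5 in Gr_1. KO B and KO C were below every fl and Gr_1 library, and KO A was not. KO over fl was 0.852 for Tapbp, and 0.857 without KO C, beside 1.01 for Tap1 with or without KO C.

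Counts over the 10 genes are given beside those over all genes, and nothing is read from them because the choice of genes used these values. The comparisons KO against fl and Gr_1 against fl share the fl libraries, and KO against Gr_1 shares libraries with both. The threshold for a call was an adjusted p of 0.05 (limma, Benjamini-Hochberg over 12289 genes). For KO against fl 3 of the 10 were called, all higher, where 4.48% of all tested genes were called higher and 6.52% lower, and 4 did not overlap, against 31.4%. For Gr_1 against fl 3 were called, all higher, where 30.0% of all tested genes were called higher and 31.4% lower, and 5 did not overlap, against 67.5%. For KO against Gr_1 1 was called higher and 3 lower, where 26.7% and 28.9% of all were, and 5 did not overlap, against 68.2%. The 1352 calls over all genes in KO against fl came down to 573 without KO C, 818 without fl A and 730 without fl B. The median difference over the 10 genes in log2(FPKM + 1) was 0.03, 0.17 and -0.01 in the 3 comparisons, beside -0.01, -0.03 and 0.01 over all genes. Rescaling without the 10 most abundant genes moved the all-gene medians to 0.06, -0.12 and 0.17 and turned the split of all calls from 551 higher and 801 lower to 848 and 576 for KO against fl, and from 3287 and 3556 to 4910 and 2529 for KO against Gr_1.

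The rest of the pathway was followed in a list of 60 other genes, of which 56 were in the table and 38 passed the filter on low values. Of these 38, 0 rose and 5 fell in KO against fl, 7 rose and 17 fell in Gr_1 against fl, and 11 were higher and 7 lower in KO than in Gr_1. The median differences were -0.05, -0.20 and 0.04. The libraries of the 2 groups did not overlap for any of the called genes, which a call with 3 libraries per group makes likely. Over all 38, the groups did not overlap for 19, 26 and 24 genes in the 3 comparisons, against 31.4%, 67.5% and 68.2% of all tested genes. The called share of the list, 13.2%, 63.2% and 47.4% in the 3 comparisons, was not far from that of all tested genes, 11%, 61.4% and 55.7%, and nothing particular to the pathway is read from the counts. The 5 genes that fell in KO were Fcgrt, Hfe, Psmb10, Pomp and Psme2. Without KO C 4, 23 and 15 of the 38 were called.

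**Figure D4:**
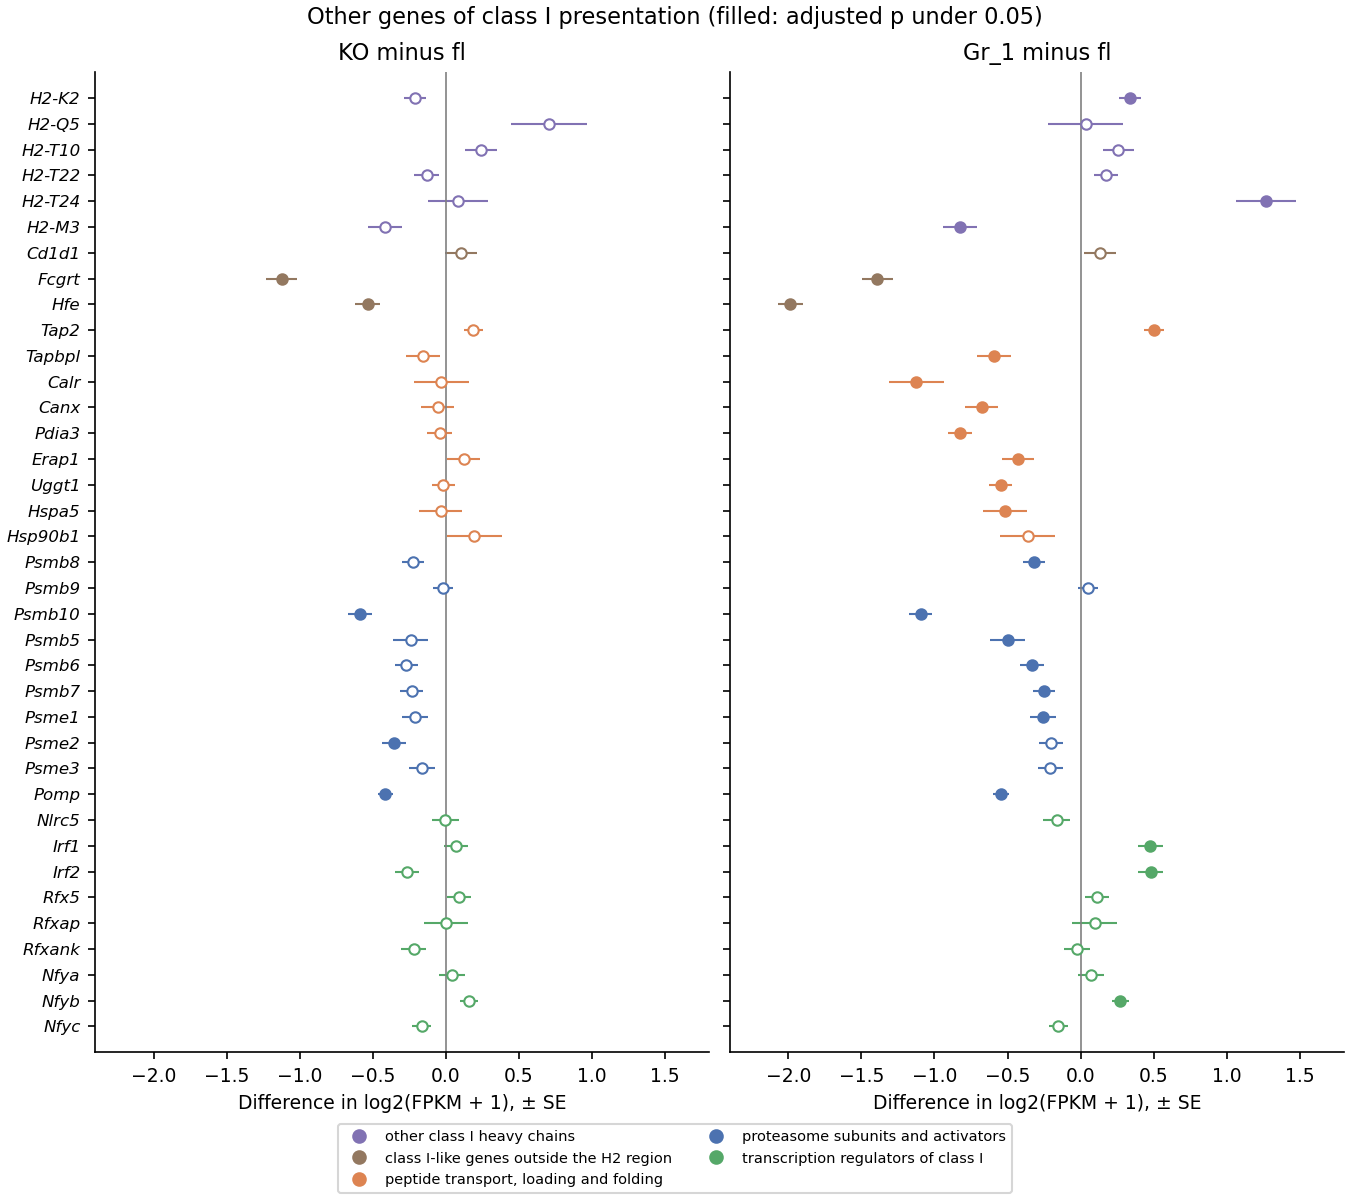
Difference in log2(FPKM + 1) from fl for KO (left) and Gr_1 (right) of the other class I pathway genes tested (1 of the 38 is not drawn), with bars of 1 SE from the fit over all 9 libraries and filled points for an adjusted p under 0.05. In KO 5 genes are filled, all to the left. In Gr_1 the loading and folding genes lie to the left except Tap2, while Irf1, Irf2 and H2-T24 lie to the right.

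Among other heavy chains 6 of 22 in the table were tested, and the 16 others were under the filter. In KO against fl limma called 0 of the 6, with 3 at an unadjusted p under 0.05, and voom called 1, H2-M3. H2-T24, a chain of the T region, was at 28.6, 22.7 and 25.6 FPKM in fl, 36.7, 18.9 and 28.6 in KO and 69.9, 58.0 and 61.1 in Gr_1. It rose in Gr_1 against fl by 1.27 ± 0.21 (difference in log2(FPKM + 1) ± SE, adjusted p = 0.000711) and was lower in KO than in Gr_1 (-1.18 ± 0.21, adjusted p = 0.00135). H2-K2 rose in Gr_1 as well, from 20.8 ± 0.489 to 26.6 ± 2.03 FPKM (0.34 ± 0.08, adjusted p = 0.00449). H2-M3, which shows formylated bacterial peptides, fell in Gr_1 from 13.4 ± 0.974 to 7.15 ± 1.21 FPKM (-0.83 ± 0.12, adjusted p = 0.00031), and in KO it was at 9.79 ± 0.9995 (-0.42 ± 0.12, adjusted p = 0.053). H2-T22 was lower in KO than in Gr_1 (-0.30 ± 0.08, adjusted p = 0.014), a call lost under both other scalings (adjusted p 0.180 and 0.0821). H2-M3 was higher in KO than in Gr_1 (0.41 ± 0.12, adjusted p = 0.0153), and that call was lost without KO B (0.0529), KO C (0.0541) or Gr_1 B (0.0566).

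H2-Q5, which lies between H2-Q4 and H2-Q6, followed H2-Q7. It was at 7.71, 7.14 and 9.25 FPKM in fl, at 8.89, 20.005 and 14.2 in KO and at 7.14, 7.13 and 10.8 in Gr_1. KO B was again highest and KO A overlapped fl. The difference between KO and fl was 0.71 ± 0.26 and did not pass the test (adjusted p = 0.123), while without KO A it was 0.99 with an adjusted p of 0.0218. H2-Q5 shares 6.48% of its windows with H2-Q7 and 2.73% with H2-Q10.

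Of the class I-like genes outside the H2 region, 3 of 5 were tested and 2 fell in both KO and Gr_1. Among all tested genes 6.52% were called lower in KO against fl and 31.4% in Gr_1 against fl. Fcgrt, the neonatal Fc receptor, which carries IgG and albumin and pairs with beta-2-microglobulin, was at 15.2, 16.98 and 17.4 FPKM in fl, 7.47, 6.30 and 7.33 in KO and 6.62, 4.85 and 5.64 in Gr_1. It fell by 1.12 ± 0.11 in KO (adjusted p = 0.000731) and by 1.39 ± 0.11 in Gr_1 (adjusted p = 1.2e-05). Hfe, a class I-like regulator of iron uptake, was at 8.60, 9.79 and 10.13 FPKM in fl, 6.65, 5.58 and 6.51 in KO and 1.55, 1.76 and 1.63 in Gr_1. It fell by 0.54 ± 0.09 in KO (adjusted p = 0.00569) and by 1.99 ± 0.09 in Gr_1 (adjusted p = 1.1e-06). Both calls against fl held in all 17 other settings, those without KO C included. Monocyte and macrophage markers were lower in the same groups, as given above, and their part in the Fcgrt and Hfe levels was not tested.

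Peptide transport, loading and folding genes did not pass the test in KO against fl, where limma called 0 of 9 (1 at an unadjusted p under 0.05) and voom 0, and their median difference was -0.03. In Gr_1 against fl 1 rose and 7 fell, where 30.0% of all tested genes were called higher and 31.4% lower. Tap2, the partner of Tap1, was the one that rose, from 22.3, 23.4 and 23.01 FPKM in fl to 33.1, 34.6 and 31.0 in Gr_1 (0.50 ± 0.07, adjusted p = 0.00021), with 26.2 ± 1.498 in KO. Calr encodes the chaperone calreticulin. Its level was 170, 188 and 248 FPKM in fl, 151, 253 and 193 in KO, and 93.6, 91.0 and 88.2 in Gr_1. It fell in Gr_1 by 1.12 ± 0.19 (adjusted p = 0.000884). Pdia3, which encodes the ERp57 partner of tapasin, fell in Gr_1 from 126 ± 7.16 to 70.8 ± 2.64 FPKM (-0.83 ± 0.08, adjusted p = 4.66e-05), and the glucosyltransferase gene Uggt1 fell by 0.55 ± 0.08 (adjusted p = 0.000341).

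Tapbpl, the tapasin relative that edits peptides, fell in Gr_1 by 0.59 ± 0.12 (adjusted p = 0.00206), and Erap1, which trims peptides in the endoplasmic reticulum, by 0.43 ± 0.11 (adjusted p = 0.00825). Canx and Hspa5 fell as well, and Hsp90b1 did not pass (-0.36 ± 0.19, adjusted p = 0.124). These folding genes serve many proteins besides class I. In KO against Gr_1 8 of the 9 were higher, where 26.7% of all tested genes were called higher and 28.9% lower. Tap2 was lower in KO than in Gr_1 (-0.32 ± 0.07, adjusted p = 0.0035), and that call was lost under both other scalings (adjusted p 0.123 and 0.0762). The call on Hspa5 there was lost without KO B, KO C, Gr_1 A or Gr_1 B (adjusted p 0.0536 to 0.0673), and that on Hsp90b1 without KO B, KO C or any 1 of the Gr_1 libraries (0.0672 to 0.0888).

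Of 10 proteasome genes tested, 3 fell and 0 rose in KO against fl, and 7 fell in Gr_1 against fl. Among all tested genes 6.52% were called lower in KO against fl and 31.4% in Gr_1 against fl. Psmb10, an immunoproteasome subunit, was at 52.4, 49.2 and 60.8 FPKM in fl, 36.3, 34.8 and 35.4 in KO and 25.9, 24.03 and 24.3 in Gr_1, and it fell by 0.59 ± 0.08 in KO (adjusted p = 0.00281) and by 1.09 ± 0.08 in Gr_1 (adjusted p = 9.34e-06). Pomp, the assembly factor of the proteasome, fell from 20.1 ± 0.438 FPKM in fl to 15.1, 14.5 and 14.8 in KO A, B and C (-0.42 ± 0.05, adjusted p = 0.00198) and 13.5 ± 0.283 in Gr_1 (-0.54 ± 0.05, adjusted p = 3.57e-05). Psme2, a subunit of the PA28 activator, fell in KO from 38.3 ± 2.86 to 30.9, 29.0 and 29.2 FPKM in KO A, B and C (-0.36 ± 0.08, adjusted p = 0.0266). That call was lost without fl A, fl C, KO B or KO C (adjusted p 0.0871, 0.061, 0.0614 and 0.106).

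The calls on Psmb10 and Pomp against fl held in all 17 other settings. Of the other inducible subunits, Psmb8 was at 49.1 ± 1.74 FPKM in fl and 41.9 ± 2.15 in KO (adjusted p = 0.101), and it fell in Gr_1 to 39.3 ± 3.48 (-0.32 ± 0.08, adjusted p = 0.00579). Psmb9, which lies next to Tap1 and shares 3.87% of the Tap1 exon bases on the opposite strand, was at 24.7 ± 0.893, 24.4 ± 0.177 and 25.7 ± 2.12 FPKM in fl, KO and Gr_1 (adjusted p = 0.885 in KO and 0.529 in Gr_1). The constitutive subunits Psmb5, Psmb6 and Psmb7 and the activator Psme1 were among the 7 genes that fell in Gr_1. Of these, Psmb7 lost its call without Gr_1 C (adjusted p 0.0688) and Psme1 without fl C, KO C, Gr_1 B or Gr_1 C (0.0506 to 0.107).

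Of 10 transcription regulators limma called 0 in KO against fl (4 at an unadjusted p under 0.05) and voom 0. In Gr_1 against fl 4 rose and 0 fell, where 30.0% of all tested genes were called higher and 31.4% lower. Irf1, an activator of class I promoters, was at 15.8, 16.4 and 19.0 FPKM in fl, 19.7, 17.3 and 16.9 in KO and 23.9, 24.5 and 23.95 in Gr_1, and it rose in Gr_1 by 0.48 ± 0.08 (adjusted p = 0.00105). Irf2 rose by 0.48 ± 0.08 (adjusted p = 0.0011), and so did Nfyb, a subunit of the factor that binds CCAAT (0.27 ± 0.06, adjusted p = 0.00389). Nlrc5, the class I transactivator, was at 3.96 ± 0.428 FPKM in fl, 3.93 ± 0.193 in KO and 3.42 ± 0.365 in Gr_1 and did not pass (adjusted p = 0.985 in KO and 0.146 in Gr_1). Irf1 and Irf2 were lower in KO than in Gr_1 (-0.41 ± 0.08, adjusted p = 0.00306, and -0.74 ± 0.08, adjusted p = 0.000152).

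The split of pathway calls in KO against Gr_1 depended on the scaling. It was 11 higher and 7 lower on the deposited scale, 22 and 5 after rescaling without the 10 most abundant genes, and 19 and 5 after quantile normalization.

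The genes most like 3 of the 10 were found by Pearson's r of log2(FPKM + 1) over the 9 libraries. These fall into 3 groups, so r describes group levels and library order together and carries no test. For H2-Q10 the closest were Asprv1 (r = 0.9995), Cxcr2 (0.997), Scrg1 (0.997), Aqp9 (0.997) and Clec4d (0.997). Cxcr2, the chemokine receptor of mature neutrophils and 1 of the late neutrophil markers, was at 6.56 ± 0.470 FPKM in fl, 45.8 ± 16.8 in KO and 256 ± 8.92 in Gr_1. For H2-Q7 the closest were Smyd2 (0.978), H2-Q5 (0.975), Gimap3 (0.968), Fcer1a (0.966) and Srxn1 (0.965). Fcer1a, a subunit of the IgE receptor and 1 of the basophil and mast cell markers, was at 2.97 ± 1.65 FPKM in fl, 16.7 ± 11.2 in KO and 1.66 ± 0.665 in Gr_1. For H2-K1 they were Dyrk3 (0.974), Zfp346 (0.972), Rpl29 (0.961), Tagap (0.956) and Zfp275 (0.953).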

How the data were processed

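The authors deposited FPKM values for 54532 Ensembl gene IDs, with 1 column for each of the 9 libraries, per the file headers. The submitters' processing notes name featureCounts (1.5.0-p3), DESeq2 (1.16.1) and the builds mm10 and GRCm38, with no role given. The aligner, the annotation and the use of strand are not given in the sources used here. Symbols and coordinates came from GENCODE M21 on GRCm38 (54495 genes matched, 37 did not). FPKM times exon length gave whole fragments within 0.02 for 97.2% to 97.5% of values under 1000 fragments. The implied denominators followed median-of-ratios size factors and departed from library totals by up to 0.222 (log2).

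The 12289 genes that reached 1 FPKM in 3 libraries or more were fitted as log2(FPKM + 1) with limma 3.58.1 (R 4.3.3) and a mean-variance trend, all 9 libraries in 1 fit with 1 term per group and 6 residual degrees of freedom. P-values are two-sided, with Benjamini-Hochberg adjustment over all tested genes and a call at an adjusted p under 0.05. The procedure was tested on simulated data with large changes, independent libraries and an equal spread for all genes. That test does not cover the uneven spread between these libraries given below. Ratios are of mean FPKM, errors beside levels are SD over 3 libraries, and errors beside log2 differences are SE. No replicate pair agreed within sampling noise (mean chi-square per gene 3.72 to 39.9). For each comparison 17 alternative settings were run, among them limma's voom on the recovered fragments.

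The 10 genes, the pathway list and the 12 marker lists were chosen with earlier results of these data known. The pathway genes named are up to 2 called genes per direction, group and comparison with the smallest adjusted p, plus Tap2, Tapbpl, Psmb8, Psmb9, Psmb10, Nlrc5, Irf1, Erap1, Calr, Pdia3, H2-M3, H2-T22 and H2-T24. Psme2, Psme1, Psmb5, Psmb6, Psmb7, Canx, Hspa5, Hsp90b1, Nfyb and Nfyc were named after their values were seen. 1 gene that the counts include is not reported here. Shared windows of 125 bases were sought in GENCODE M21 transcripts rather than in the genome. Promoters came from RefSeq (GRCm38.p6). Tables and plots used pandas 2.3.3 and numpy 2.4.6, and matplotlib 3.10.9, under Python 3.11.15.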

Additional observations from a re-analysis of the deposited data

How the results depend on the processing

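With 3 libraries per group and 6 residual degrees of freedom, small differences may be missed. The floors given cover counting error only, while SD and SE reflect the spread between libraries. For KO against fl, 1352 of all tested genes were called, 794 with only the 2 groups in the fit (fewer residual degrees of freedom), and 573 (without KO C) to 1261 (without KO B) when 1 library was left out, with 818 without fl A and 730 without fl B. The pathway counts stayed at 4 to 7 in KO against fl, 22 to 27 in Gr_1 against fl and 15 to 27 in KO against Gr_1 over all settings. Nfyc in KO against Gr_1 changed sign when libraries were rescaled without their 10 most abundant genes (0.18, adjusted p = 0.0237), and Nfyb lost its Gr_1 call there (0.0525). Psme2 in KO and Psme1 in Gr_1 lost their calls with no filter on low values (0.0511 and 0.0543), and so did Hsp90b1 in KO against Gr_1 (0.073).

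In at least 1 setting 4 pathway genes gained a call in KO against fl, 8 in Gr_1 against fl and 11 in KO against Gr_1, while 1, 3 and 5 lost one. Those gained in KO against fl were Tap2 under both other scalings (0.0261 and 0.0244), H2-Q5 and Irf2 without KO A (0.0218 and 0.0131), and H2-M3 with the stricter filter (0.0415), with voom (0.0342), without Gr_1 B (0.0484) and without Gr_1 C (0.0308). The KO to fl differences of H2-Q4, H2-Q6, H2-Q7 and H2-Q10 kept their sign in all 17 settings, at 0.33 to 0.63, 0.95 to 1.67, 0.82 to 1.57 and 2.36 to 5.03. Those of H2-T23 and Tapbp stayed below 0 in all 17 settings, at -0.26 to -0.04 and -0.33 to -0.12. The KO to fl differences of H2-K1, H2-D1, B2m and Tap1 changed sign in 2, 2, 1 and 3 settings.

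The labels do not say whether the letters A, B and C pair the libraries, and the main fit did not pair them. Deviations from the group means of libraries with the same letter correlated at -0.0618 to 0.140, over 0.1 in 1 of 9 pairs. In the 3 comparisons 3, 2 and 0 of 6 libraries correlated best with their own letter. These correlations cannot tell whether libraries with the same letter share an animal or a batch. With the letter as a replicate block, 1037, 7280 and 6469 genes and 5, 24 and 19 pathway genes were called in KO against fl, Gr_1 against fl and KO against Gr_1, Psme1 lost its call in Gr_1 against fl (0.0555), Psme2 gained one there (0.0486), and H2-Q5 gained one in KO against Gr_1 (0.0422).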
